A study of Mus musculus with 30 samples.

Results

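T (Brachyury), Eomes, Mixl1 and Evx1 are transcription factors of the primitive streak. These 4 of the 23284 genes in the deposited RNA-seq tables were chosen by name, to follow when each transcript appeared, how far replicate libraries differed and how large the difference between genotypes was. All 4 passed the filter on low counts in both tables. The study's question is how p53, Wnt and TGF-β inputs meet at the genes of mesendoderm, the common precursor of mesoderm and endoderm. The RNA came from embryonic stem (ES) cells of the mouse and from embryoid bodies (EBs), the aggregates in which ES cells differentiate.

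The genotype libraries, 2 in each group, came from EBs at day 4 of lines on a C57BL/6J background. One group was Trp53-/- and carried p63 shRNA and p73 shRNA, short hairpin RNAs against the other members of the p53 family, and is called p53 family loss here. Its reference was Trp53+/+ without hairpins. The labels describe both lines as kept in N2B27 medium with LIF and 2i, the inhibitors PD0325901 and CHIR99021, before EB formation, and name neither the number of clones nor a hairpin control. The deletion and both knockdowns therefore cannot be told apart from each other or from a difference between lines. The time course used wild-type E14Tg2a.IV cells (E14 here) on a 129/Ola background, kept in serum with LIF, with 2 libraries of ES cells at day 0 and 2 libraries of EBs on each of days 1, 2, 3 and 4. No RNA library carries an Activin or SB431542 label. Whether the paired libraries of a group were separate cultures is not stated, so p-values measure only the spread between these samples.

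The primitive streak is the site in the gastrulating embryo where epiblast cells become mesoderm and endoderm. Wnt and Nodal signals induce it. T and Eomes are T-box factors, T being needed for posterior mesoderm and notochord and Eomes for definitive endoderm and the earliest anterior mesoderm. Mixl1 is a paired-type homeobox factor that takes part in endoderm and mesoderm formation, and Evx1 is an even-skipped-type homeobox factor of the posterior streak. T and Evx1 are known targets of Wnt signalling, and Eomes and Mixl1 respond to Nodal and its relative Activin. Outside the streak, Eomes is also used by trophoblast and visceral endoderm, and T by the node and notochord.

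The promoters of the genes are shown because all 4 transcripts rose by day 4 and were lower in p53 family loss. A further reason is that the factors studied, p53, Smad2/3 and Tcf3, bind DNA. Shared control of the 4 genes was not tested. RefSeq promoter sequences on GRCm38.p6 matched 3 of the 4 genes, and Mixl1 is named only. Each run below holds the 250 bases before the annotated start, on the plus strand, with any matches to the letters searched in capitals. The letters, on both strands and with overlapping matches allowed, were CTTTGA for Tcf/Lef factors, GTCTG for Smad factors and AGGTGTG for T-box factors, together with the p53 half-site.
T, chr17:8434173-8434422: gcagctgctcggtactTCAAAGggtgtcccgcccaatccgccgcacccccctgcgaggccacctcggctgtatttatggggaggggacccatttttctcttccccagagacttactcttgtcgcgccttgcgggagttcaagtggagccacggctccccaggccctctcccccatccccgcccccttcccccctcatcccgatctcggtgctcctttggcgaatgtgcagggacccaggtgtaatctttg
Eomes, chr9:118477939-118478188: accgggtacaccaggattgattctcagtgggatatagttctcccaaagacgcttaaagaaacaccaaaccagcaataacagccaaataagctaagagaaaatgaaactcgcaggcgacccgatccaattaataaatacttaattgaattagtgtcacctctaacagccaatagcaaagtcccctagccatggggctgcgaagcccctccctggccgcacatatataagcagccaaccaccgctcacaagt
Evx1, chr6:52313248-52313497: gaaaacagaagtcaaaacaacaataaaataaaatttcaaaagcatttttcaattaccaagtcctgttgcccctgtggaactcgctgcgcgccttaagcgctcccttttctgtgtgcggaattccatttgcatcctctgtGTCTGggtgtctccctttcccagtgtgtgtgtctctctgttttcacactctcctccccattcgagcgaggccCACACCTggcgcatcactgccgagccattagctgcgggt
The T promoter held 1 Tcf/Lef match that begins 234 bases before the start. The Evx1 promoter held 1 Smad match at 111 bases and 1 T-box match at 39 bases. No match lay in the Eomes window, and no p53 half-site lay in any of the 3. Among 32851 promoters of the same length, 13.8% held the Tcf/Lef letters, 42.2% the Smad letters, 5.10% the T-box letters and 7.13% the p53 half-site. A match is a description of letters and not a binding site.

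E14 libraries held 20104644 to 39835808 reads and the genotype libraries 19104692 to 31580252. Across genes, Spearman's correlation of replicate 1 with replicate 2 was 0.962 at day 0, lower than the 0.984 to 0.995 of every other group. Of the targeted genes, Trp53 and Trp73 followed the labels, and Trp63 was too low to check them. Trp53 had normalised read counts of 866 and 802 in p53 family loss, against 8339 and 11784 in Trp53+/+ (limma, log2 fold change -3.57, adjusted p = 0.0017). Trp73 had 48.0 and 52.5 against 219 and 297 (-2.32, adjusted p = 0.022), and Trp63 stood at 4.44 and 0 against 6.08 and 5.31 and was not tested. A normalised read count is the value the authors deposited, a read count divided by 1 factor per library. Undifferentiated ES cell markers (Zfp42, Esrrb, Klf4, Tfcp2l1, Nr0b1 and Tbx3) summed to 2558 and 2011 CPM (read counts scaled to a common library total) in the libraries labelled ES cells at day 0, and to between 89.0 and 931 in the E14 EBs.

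Eomes was the earliest of the 4 transcripts in E14 cells. Its normalised counts in replicates 1 and 2 were 424 and 145 at day 0, 796 and 728 at day 1, 1625 and 1887 at day 2, 6645 and 8719 at day 3, and 15236 and 14425 at day 4. From day 1 on, both libraries of each day lay above both day 0 libraries, a pattern shown by 8.86% of the 15841 genes tested. Against day 0 the log2 fold change was 1.62 ± 0.39 (SE) at day 1, and the call was missed there (limma, adjusted p = 0.054). At day 2 it was 2.82 ± 0.39 and passed the threshold of 0.05 (limma, adjusted p = 0.0019). Day 0 replicate 1, which held 2.92 times the Eomes of replicate 2, set much of that early value. Without it the day 1 change was 2.39 and without day 0 replicate 2 it was 0.84. Either fit left 1 library at day 0, so the spread of that day was not measured and a call cannot be weighed. The same limit holds below wherever 1 library of a compared group is left out. In bulk RNA, more cells of a type and more RNA per cell cannot be told apart, here and in every result that follows.

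T was low until day 2. Its normalised counts were 98.8 and 55.8 at day 0, 31.9 and 47.9 at day 1, 123 and 236 at day 2, 5034 and 8310 at day 3, and 21465 and 16448 at day 4. Both day 1 libraries lay below both day 0 libraries, as did those of 19.7% of tested genes, with a log2 change of -0.91 ± 0.40 (limma, adjusted p = 0.24). Those values rest on 37 and 60 reads at day 1, against 90 and 47 at day 0, and the change was -1.32 without day 0 replicate 2. At day 2 both libraries exceeded both of day 0, as from then on did 19% of all tested genes, but the change of 1.19 ± 0.40 was not called (limma, adjusted p = 0.066). Without day 0 replicate 1 it was 1.60. At day 3 the change was 6.43 ± 0.40, an 85.9-fold higher level (limma, adjusted p = 3.9e-05), so the first day called was day 3.

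Mixl1 started from the fewest reads of the 4, 13 and 17 at day 0. Its normalised counts were 14.3 and 20.2 at day 0, 18.1 and 21.6 at day 1, 52.8 and 56.0 at day 2, 1345 and 1960 at day 3, and 6108 and 6657 at day 4. Days 0 and 1 overlapped, with a change of 0.21 ± 0.31 (limma, adjusted p = 0.73), and from day 2 on every library lay above both of day 0. The day 2 change of 1.62 ± 0.31 was called (limma, adjusted p = 0.0071), though not without day 2 replicate 2 (1.58, limma, adjusted p = 0.068). At day 4 Mixl1 stood 355-fold over day 0, a log2 change of 8.47 ± 0.31 (limma, adjusted p = 7.5e-07), the largest of the 4.

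Evx1 was the last of the 4 to lie above day 0 in both libraries, while by first day called it tied with T at day 3. Its normalised counts were 69.1 and 34.4 at day 0, 146 and 47.9 at day 1, 21.5 and 39.1 at day 2, 347 and 619 at day 3, and 4267 and 4806 at day 4. Days 1 and 2 overlapped day 0, and neither was called, at 0.77 ± 0.56 (limma, adjusted p = 0.46) and -0.73 ± 0.56 (limma, adjusted p = 0.38). From day 3 on both libraries lay above day 0, as did those of 25.3% of tested genes, with a change of 3.22 ± 0.56 at day 3 (limma, adjusted p = 0.0030). At day 4 it was 6.51 ± 0.56 (limma, adjusted p = 5.0e-05).

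Evx1 shares part of its locus with Evx1os, a long non-coding RNA listed in the tables under its older symbol 5730457N03Rik. The library kit does not mark strand, and the counting was not stated to use it, so reads from the shared stretch cannot be assigned to one or the other. Evx1os had normalised counts of 56.0 and 10.4 at day 1, with replicate 1 the higher library as for Evx1. At day 4 it had 1837 and 2134, against 3.29 and 8.31 at day 0 (limma, log2 change 8.29, adjusted p = 5.2e-05). T and Eomes each overlap 1 RefSeq gene that has no row under its symbol in the tables, and no RefSeq gene overlaps Mixl1.

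**Figure D1:**
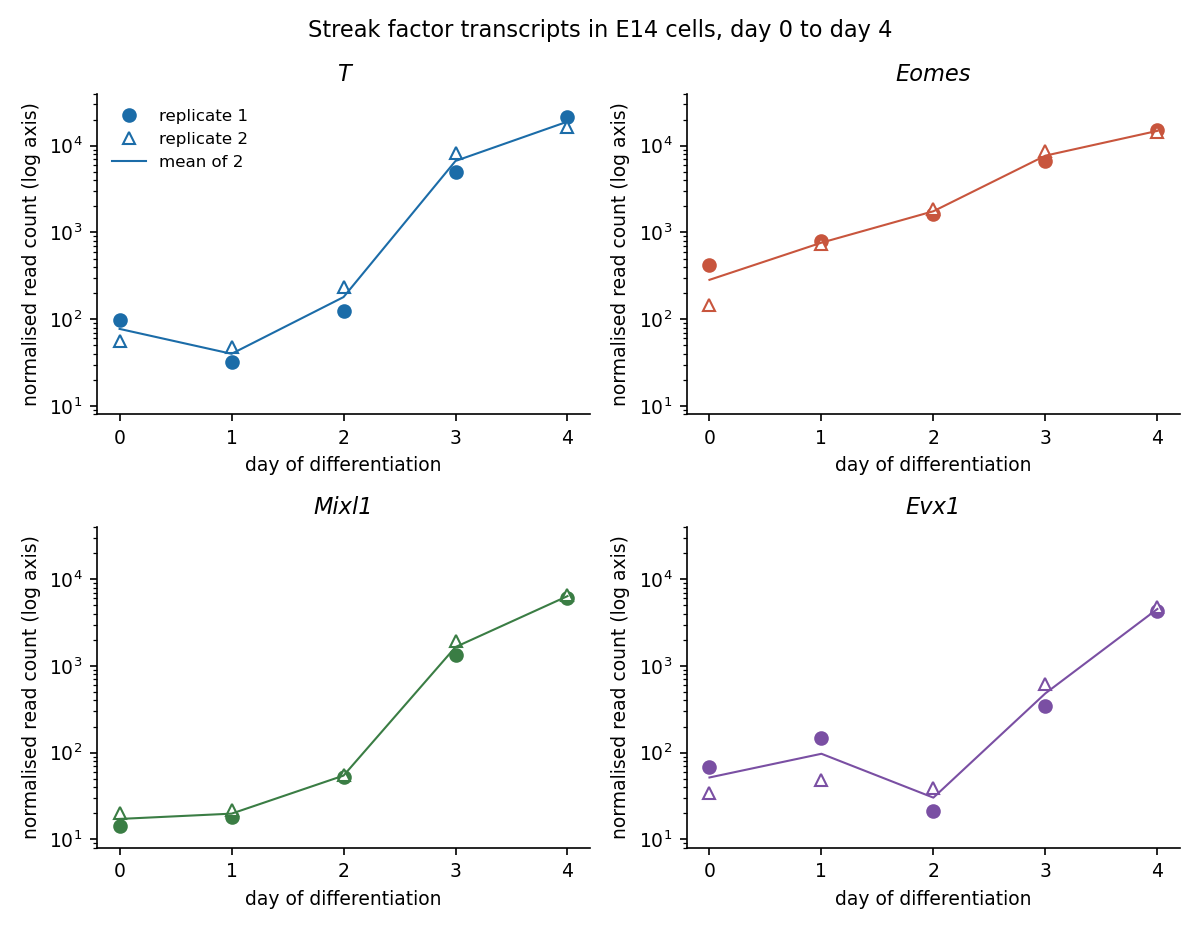
Normalised read count of Eomes, Mixl1, T and Evx1 (log axis) against day of differentiation in E14 cells, with 1 point per library and a line through the mean of the 2 libraries of a day. Eomes is above day 0 from day 1, T and Mixl1 from day 2 and Evx1 from day 3, and at day 4 all 4 are between 4267 and 21465.

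Set against all genes, the count of called members was 0 of 4 higher at day 1, where 1.75% of tested genes were higher. At an unadjusted p under 0.05, Eomes was higher and T lower at day 1. The share of all genes at that unadjusted p was not counted. DESeq2 called 1, Eomes (1.42, adjusted p = 0.0071), and edgeR called 0 of 4. For that day DESeq2 called 1450 of 15841 genes, higher or lower. At day 2 limma called 2 of 4 higher (Eomes and Mixl1), with 10.1% of genes higher. At days 3 and 4 it called 4 of 4, with 15.4% and 19.2% of genes higher.

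The order can also be read as a share of each gene's own day 4 level, in CPM. Eomes stood at 1.70% of it at day 0, 4.69% at day 1, 11.6% at day 2 and 52.0% at day 3. For T these shares were 0.363%, 0.192%, 0.929% and 35.3%, and for Mixl1 0.244%, 0.284%, 0.834% and 26.0%. Evx1 was at 1.02%, 1.95%, 0.656% and 10.7%. Eomes thus reached 10% of its day 4 level at day 2 and the other 3 genes at day 3, and Eomes reached 50% at day 3 and the other 3 at day 4. By all of these measures Eomes was first, or first together with Mixl1 by first day called. The place of T against Mixl1 depended on the measure, since both were above day 0 from day 2 while T was called at day 3 and Mixl1 at day 2.

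The step between days 2 and 3 held most of the rise of T and Mixl1. The step was a log2 change of 5.23 ± 0.40 for T (limma, adjusted p = 0.0011), which is 65.7% of its total log2 rise. It was 4.87 ± 0.31 for Mixl1 (limma, adjusted p = 0.00033), or 57.5%. For Evx1 it was 3.95 ± 0.56 (limma, adjusted p = 0.031), or 60.7%, after a difference of -1.50 between days 2 and 1 that was not called (limma, adjusted p = 0.18). The shares of T and Evx1 include a negative step, -11.4% at day 1 for T and -23.0% at day 2 for Evx1. The day 4 step of Evx1 held another 50.5%. For Eomes the day 3 over day 2 change of 2.12 ± 0.39 was not called (limma, adjusted p = 0.099). The 4 steps from day 0 to day 4 held 27.4%, 20.4%, 35.9% and 16.3% of the total log2 rise of Eomes. The share of the day 1 step was 35.8% without day 0 replicate 1 and 16.5% without day 0 replicate 2. The differences between genes in these shares were not tested.

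The day 3 step called 3 of 4 members higher, against 0.133% of tested genes, which is 21 genes in all. That total depended on single libraries, at 1 without day 3 replicate 2, 2 and 3 without day 2 replicate 1 and 2, 3 and 7 without day 4 replicate 1 and 2, 11 without either day 1 library, 17 without day 3 replicate 1, and 216 and 217 without day 0 replicate 1 and 2. Mixl1 was called with each of the 10 libraries left out. T was lost without day 3 replicate 2 (4.87, limma, adjusted p = 0.0501). Evx1 was lost without any 1 library of day 2, 3 or 4 (3.53 to 4.37, limma, adjusted p from 0.089 to 0.53). Eomes was gained without either day 0 library (2.12, limma, adjusted p = 0.00059 and 0.00054).

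The next step, day 4 over day 3, still raised Evx1 by a log2 change of 3.29 ± 0.56 (limma, adjusted p = 0.013), 9.75-fold. Mixl1 rose by 1.97 ± 0.31, 3.93-fold (limma, adjusted p = 0.0087). These 2 of 4 members were called, with 2.31% of tested genes higher. Both calls were lost without day 3 replicate 1 or either day 4 library, with changes of 2.87 to 3.37 for Evx1 and 1.70 to 2.04 for Mixl1 (limma, adjusted p from 0.091 to 0.17). The values were 1.54 ± 0.40 for T (limma, adjusted p = 0.079) and 0.96 ± 0.39 for Eomes (limma, adjusted p = 0.27), with values in both day 4 libraries above both of day 3, as for 27.7% of tested genes, and both were called without either day 0 library. Between days 1 and 2 no member was called by limma or edgeR, with 0.158% of genes called higher by limma. All 4 had an unadjusted p under 0.05, and DESeq2 called 4 of 4, Evx1 as lower. DESeq2 called far more genes in this step, 1290 of 15841, higher or lower. The share of all genes at an unadjusted p under 0.05 was not counted.

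**Figure D2:**
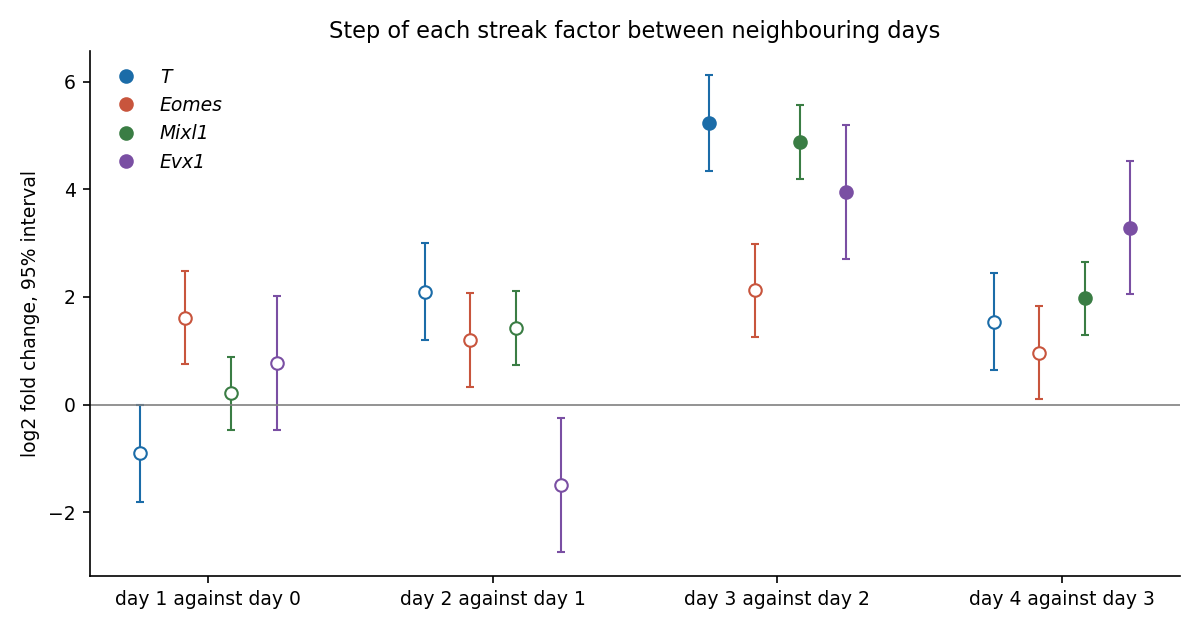
Log2 fold change of each gene between neighbouring days in E14 cells, later over earlier, with 95% intervals from limma (n = 2 libraries a day). Filled points passed an adjusted p of 0.05, as T, Mixl1 and Evx1 did from day 2 to day 3 and Mixl1 and Evx1 from day 3 to day 4.

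The ratio of 2 genes within a library does not depend on how libraries are scaled. Without transcript lengths it is read only as a change between libraries. The log2 ratio of Eomes to T was 2.10 and 1.38 at day 0, 4.64 and 3.93 at day 1, 3.72 and 3.00 at day 2, 0.40 and 0.07 at day 3, and -0.49 and -0.19 at day 4. It peaked at day 1 and was lower in both libraries on each later day. The ratio of Evx1 to T was lowest at day 3, at -3.86 and -3.75, and stood at -2.33 and -1.77 at day 4. The ratio of Mixl1 to T was -2.79 and -1.47 at day 0 and -1.81 and -1.31 at day 4, and these days overlap.

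**Figure D3:**
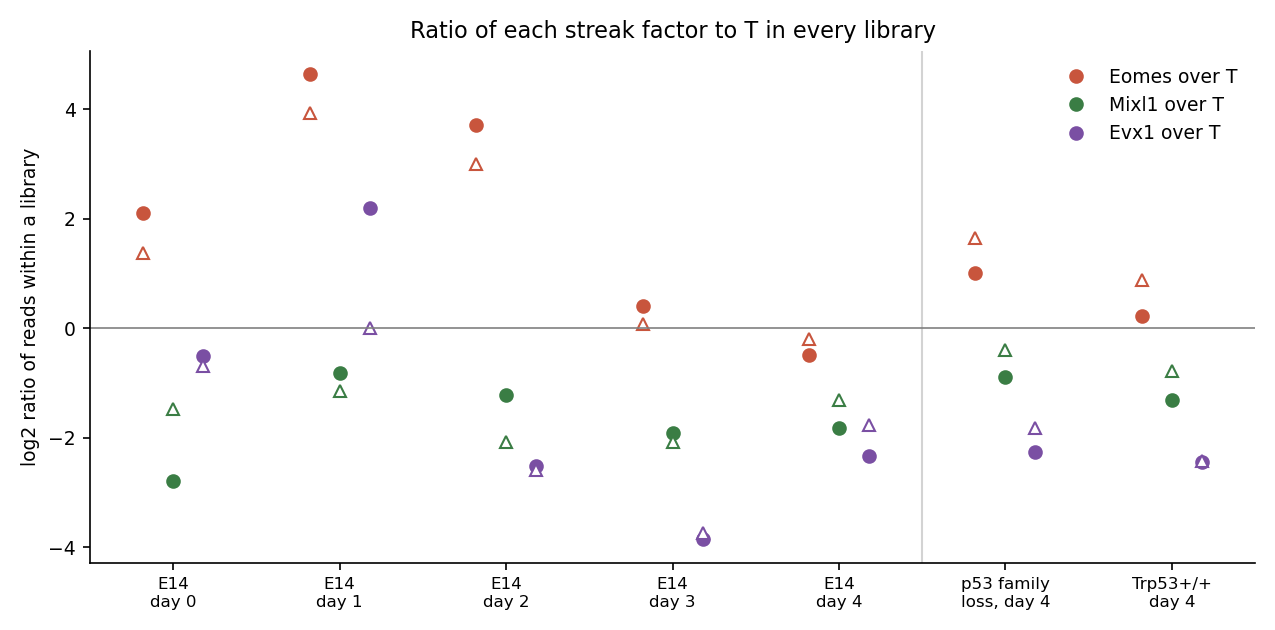
Log2 ratio of reads of Eomes, Mixl1 and Evx1 to reads of T within each library, for the 5 E14 days and then p53 family loss and Trp53+/+ at day 4, with 1 point per library. The Eomes ratio runs down from 4.64 and 3.93 at day 1 to -0.49 and -0.19 at day 4.

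The replicate libraries differed unevenly over the days. At days 2 and 3 replicate 2 was the higher library for all 4 genes. At day 3 its ratio to replicate 1 was 1.65 for T, 1.31 for Eomes, 1.46 for Mixl1 and 1.78 for Evx1. Of all tested genes, 50.5% were higher in that replicate and 19.2% were more than 1.3-fold higher. Some other mesendoderm genes had wider gaps at day 3, with 313 and 1216 for Lhx1 and 45.8 and 232 for Mesp1 in replicates 1 and 2. Foxa2 went the other way, with 1129 and 1021. Genes with a level within 2-fold of each member had a median ratio of the higher to the lower library of 1.12 to 1.17 at day 3. Replicate 2 was also the shallowest E14 library, with 20104644 reads, and the part of depth in these ratios was not tested. The ratio of Mixl1 at day 3 rests on 1410 and 1346 reads.

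The widest single spread was at day 1, where Evx1 was 3.06-fold higher in replicate 1, against a median of 1.37 for genes of like level. It rests on 170 reads (95% Poisson interval 145 to 198) against 60 (45.8 to 77.2), intervals that do not overlap and that cover counting error only. Eomes followed at day 0 with 2.92-fold, against 1.51 for genes of like level. At day 4 the 4 ratios were 1.31 for T, 1.06 for Eomes, 1.09 for Mixl1 and 1.13 for Evx1. T was the widest of the 4 there, and again in p53 family loss, at 1.41, where Mixl1 had a ratio of 1.00. In Trp53+/+ Eomes was the widest at 1.39, before Mixl1 at 1.27, T at 1.13 and Evx1 at 1.12.

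All 4 transcripts were lower in p53 family loss EBs at day 4 than in Trp53+/+ EBs, and the groups did not overlap, as was so in this direction for 20.2% of tested genes. T had normalised counts of 1554 and 1100 in p53 family loss, against 10292 and 9092 in Trp53+/+. Its level was 13.7% of that in Trp53+/+, a log2 fold change of -2.89 ± 0.20 (95% interval -3.38 to -2.39, limma, adjusted p = 0.0044). The lowest Trp53+/+ library exceeded the highest p53 family loss library 5.85-fold.

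Eomes fell the least, with 3112 and 3469 in p53 family loss and 12022 and 16743 in Trp53+/+. That is 22.9% of the Trp53+/+ level, a log2 fold change of -2.11 ± 0.20 (95% interval -2.59 to -1.63, limma, adjusted p = 0.013). Eomes also had the narrowest gap between the groups, 3.47-fold.

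The homeobox genes fell by the same log2 value to 2 decimals. Mixl1 had 835 and 837 in p53 family loss, against 4174 and 5286 in Trp53+/+, or 17.7% (-2.49 ± 0.17, 95% interval -2.91 to -2.07, limma, adjusted p = 0.0042). Evx1 had 325 and 311 in p53 family loss, against 1887 and 1686 in Trp53+/+, or 17.8% (-2.49 ± 0.17, 95% interval -2.90 to -2.07, limma, adjusted p = 0.0042). The gaps between the groups were 4.99-fold and 5.18-fold. Evx1os had 126 and 89.5 in p53 family loss, against 592 and 267 in Trp53+/+, and was not called (-1.89, limma, adjusted p = 0.11).

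All 4 members were among the 100 genes called lower, which are 0.674% of the 14840 genes tested in the genotype table. By size of the fall they ranked 22 (T), 29 (Mixl1), 30 (Evx1) and 48 (Eomes) of those 100, whose median log2 change was -2.10. With 1 of the 4 libraries left out, changes were -3.14 to -2.64 for T, -2.35 to -1.87 for Eomes, -2.66 to -2.32 for Mixl1 and -2.57 to -2.40 for Evx1. Each such fit leaves 1 library in a group and measures no spread there, so its calls cannot be weighed. The total of genes called in both directions, 184, was 1613 without Trp53+/+ replicate 1 and 1113 without Trp53+/+ replicate 2. Without a trend of spread with level in the fit, the fall of Eomes missed the threshold (-2.11, limma, adjusted p = 0.052).

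The order of the 4 falls, T before Mixl1 and Evx1 and these before Eomes, held in size only. The 95% intervals of neighbours in that order overlap, and those of T and Eomes overlap between -2.59 and -2.39. Within libraries, log2 Eomes over T was 1.00 and 1.66 in p53 family loss, against 0.22 and 0.88 in Trp53+/+, so both p53 family loss libraries lay above both Trp53+/+ libraries. For Mixl1 over T the values were -0.90 and -0.39 against -1.30 and -0.78, and the groups overlap. For Evx1 over T they were -2.26 and -1.82 against -2.45 and -2.43, with both p53 family loss libraries above. With 2 libraries against 2 an exact permutation test cannot give a p below 0.333, and no other test of these ratios was run, so they are given as values.

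Set beside the E14 days in CPM, T, Eomes and Mixl1 in p53 family loss lay between days 2 and 3. The share of all tested genes that did so was not counted. The lines, backgrounds and maintenance media differ and the tables were scaled separately, so the values are given with no test. T had 66.6 and 44.3 CPM in p53 family loss, above both E14 day 2 libraries and below both of day 3, and was on average 24.4% of the day 3 level. Eomes, with 133 and 140 CPM, was at 52.1% of it, and Mixl1, with 35.8 and 33.7 CPM, at 61.7%. Evx1, with 13.9 and 12.5 CPM, fell inside the E14 day 3 range of 11.8 to 21.1 CPM. Trp53+/+ EBs did not match E14 EBs at day 4 either, with mean CPM at 60.9% of the E14 level for T, 115% for Eomes, 88.1% for Mixl1 and 47.0% for Evx1.

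**Figure D4:**
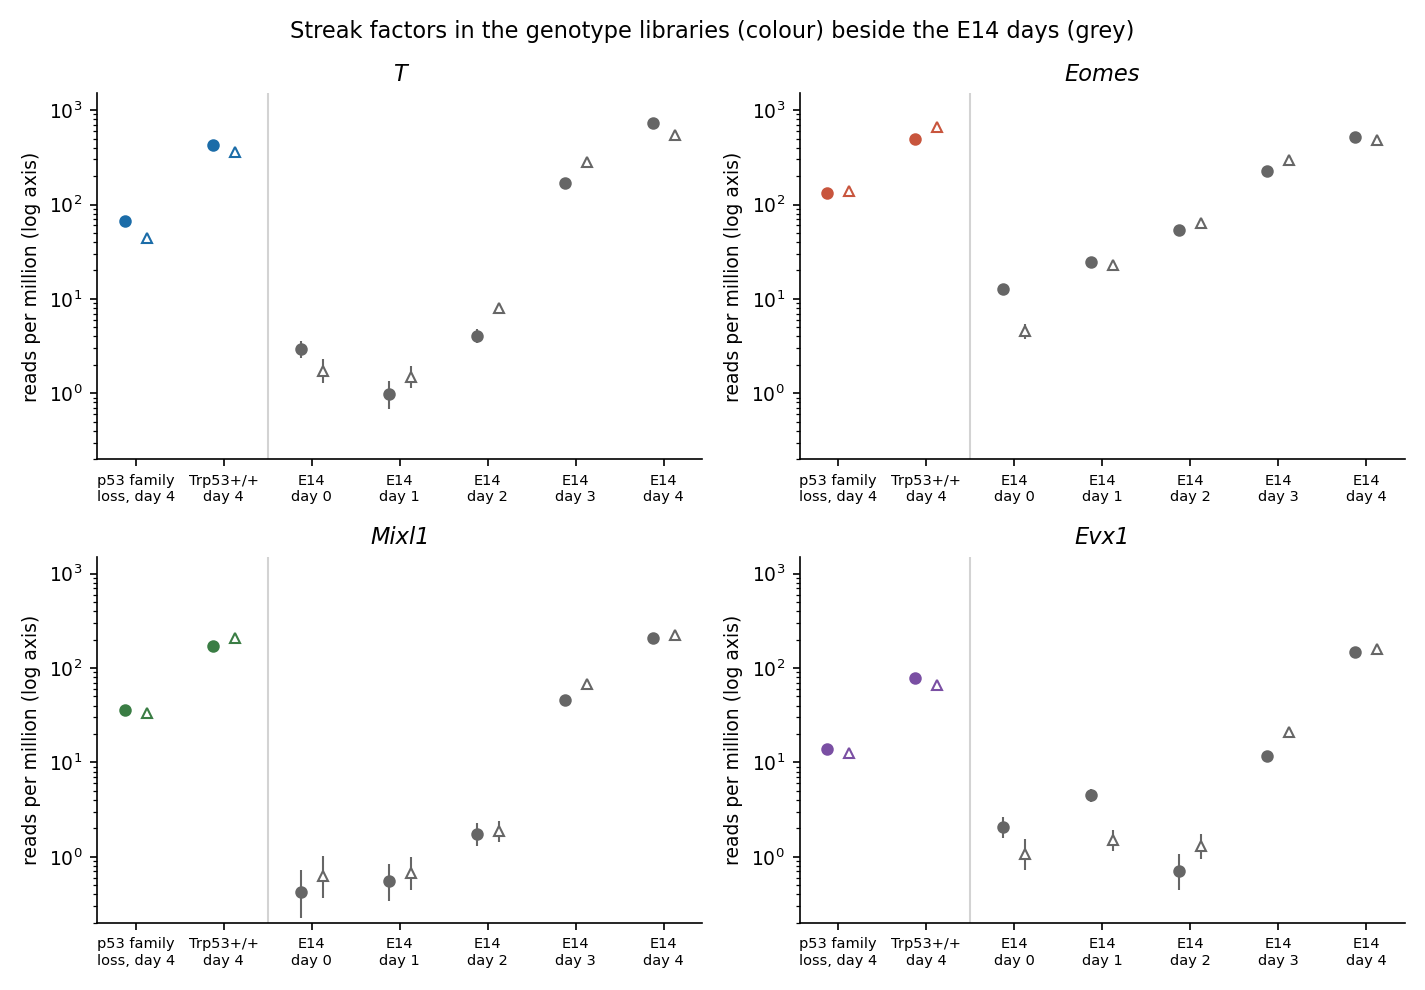
CPM (log axis) of the 4 genes in p53 family loss and Trp53+/+ EBs at day 4 (colour) beside E14 days 0 to 4 (grey), 1 point per library, circles for replicate 1 and open triangles for replicate 2, with 95% Poisson intervals for counting error. For T the p53 family loss libraries are at 66.6 and 44.3 CPM and the Trp53+/+ libraries at 427 and 359 CPM.

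Markers of other cells that use these genes were measured in the same libraries. Notochord and node markers (Noto, Shh, Chrd, Nog, Foxj1 and Foxa1), which accompany T in those tissues, summed to 23.5 and 20.9 CPM in p53 family loss, against 87.2 and 38.4 in Trp53+/+. None of 5 tested was called by limma or edgeR, 3 had an unadjusted p under 0.05 and DESeq2 called 2. Of all tested genes limma called 0.674% lower and 0.566% higher. At such shares a short list would mostly hold no call, so the absence of calls here and below does not show equal levels. Trophoblast markers summed to 62.95 and 39.6 CPM against 103 and 54.8, with Tpbpa at 0 in every library. None of 7 tested was called by limma, edgeR or DESeq2, and 2 had an unadjusted p under 0.05. Visceral endoderm markers summed to 11.2 and 3.63 CPM in p53 family loss and 31.1 and 1.73 in Trp53+/+, with none of 5 called by any of the 3 tools and 0 at an unadjusted p under 0.05. Feeder fibroblast markers ran the other way, at 92.7 and 59.0 CPM against 37.9 and 21.6. Of these, 1 of 5 tested was called, the collagen gene Col1a2, which was higher in p53 family loss (limma, log2 change 2.38, adjusted p = 0.030). In E14 EBs, notochord and node markers went from 24.1 and 28.3 CPM at day 3 to 67.0 and 51.9 at day 4. Trophoblast markers went from 28.9 and 39.5 to 165 and 430 there, and visceral endoderm markers from 6.90 and 7.71 to 12.3 and 7.42. The part of these cells in the genotype differences of T and Eomes, or in their rise in E14 cells, was not tested. Ribosomal Rn45s took 0.848% and 2.91% of reads in p53 family loss and 0.632% and 4.30% in Trp53+/+, so the second library of each group held more of it.

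Signals that induce the streak are known to act upstream of the 4 genes. Whether the differences in these signals came before or after those of the 4 genes was not tested. Of 24 tested ligands, receptors and effectors, 4 were lower and 0 higher in p53 family loss, where 0.674% of all tested genes were lower and 0.566% higher. Their median log2 change was -0.27, beside 0.01 over all tested genes. Wnt3, the ligand needed to form the streak, had 258 and 219 in p53 family loss, against 1108 and 1290 in Trp53+/+ (-2.32, limma, adjusted p = 0.010). The others were Wnt3a (-3.09, limma, adjusted p = 0.027), Fgf8 (-1.45, limma, adjusted p = 0.016) and the Nodal co-receptor Tdgf1 (-1.36, limma, adjusted p = 0.020). Nodal had 1121 and 1154 in p53 family loss, against 1677 and 1837 in Trp53+/+, and was not called (-0.63, limma, adjusted p = 0.14). The count was 7 without Trp53+/+ replicate 2 and 2 without a trend in the fit.

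The same signals were not alike in time in E14 cells. At day 2, 7 of 24 were higher and 4 lower than at day 0, with a median of 0.28, beside 10.1% higher and 8.22% lower of all tested genes. Wnt8a, a Wnt ligand of the early streak, was already at 708 and 1303 at day 1 and 2115 and 2158 at day 2, against 51.6 and 129 at day 0 (limma, log2 change 4.69 at day 2, adjusted p = 0.00023). Wnt3 was at 269 and 276 at day 2 against 177 and 71.2 at day 0 (limma, 1.27, adjusted p = 0.038) and reached 2530 and 2706 at day 4. The day 2 counts depended on single libraries, with 2 higher without either day 2 library and 1 lower without day 2 replicate 2. By day 4, 15 were higher and 4 lower, with a median of 1.24, beside 19.2% higher and 16.7% lower of all tested genes. Nodal was among the lower ones (-0.91, limma, adjusted p = 0.038).

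Genes that act downstream of T and Eomes included 9 lower and 0 higher in p53 family loss of 18 tested, with a median of -1.98, beside 0.674% lower of all tested genes. This list shares Fgf8 and Wnt3a with the signals. Mesp1, a factor of the earliest cardiac mesoderm and a known target of Eomes, had 76.1 and 113 in p53 family loss, against 731 and 1333 in Trp53+/+ (-3.40, limma, adjusted p = 0.016). Snai1, a factor of the epithelial to mesenchymal transition, changed by -2.10 (limma, adjusted p = 0.013) and the Wnt ligand gene Wnt5b by -2.30 (limma, adjusted p = 0.010). The count was 11 to 16 when 1 library was left out, highest without Trp53+/+ replicate 2, 14 with DESeq2 and 3 without a trend in the fit. In E14 cells all 18 were higher at day 4 than at day 0, with a median of 5.25, and 17 or 18 were with 1 library left out, beside 19.2% of all tested genes. At day 2 the number was 6, and 1 without either day 2 library, beside 10.1% of all tested genes.

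Other members of the same gene families were described by the same fit. In the genotype comparison 0.674% of all tested genes were called lower and 0.566% higher by limma. Of 10 other T-box genes tested there, none was called by limma or edgeR, with a median of -0.81. At an unadjusted p under 0.05 there were 4, DESeq2 called 2, and 4 were called lower and 1 higher without Trp53+/+ replicate 2. Among them Tbx6, a factor of paraxial mesoderm, was at 57.7 and 59.4 in p53 family loss, against 217 and 121 in Trp53+/+ (-1.45, limma, adjusted p = 0.14). Of 7 Mix, Evx and caudal homeobox relatives, 1 was called, Gsc, a homeobox factor of the anterior streak. Gsc was at 300.1 and 541 in p53 family loss, against 1487 and 1662 in Trp53+/+ (-1.96, limma, adjusted p = 0.042). Gsc and Cdx2 of these relatives, and Tbx6 of the T-box genes, are also in the list of genes downstream of T and Eomes. DESeq2 called 3 of the 7 lower, limma called 4 lower and 1 higher without Trp53+/+ replicate 1, and 0 were called lower without a trend in the fit. Evx2, the paralog of Evx1, was at 0 in all 14 libraries.

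Epiblast genes, which mark the tissue that enters the streak, had a median of -0.05 in the genotype comparison. That median covers differences in both directions. Mean normalised counts were 7868 in p53 family loss against 4430 in Trp53+/+ for Sox2, and 12283 against 21758 for Pou5f1. At an unadjusted p under 0.05 there were 5 of 12. By adjusted p, 1 of 12 was higher and 0 lower, beside 0.566% higher and 0.674% lower of all tested genes. The higher one was Sall2 (1.04, limma, adjusted p = 0.035), and that call was lost without either p53 family loss library and without a trend in the fit. DESeq2 called 2 higher, and limma called 3 higher without Trp53+/+ replicate 2 and 2 lower without Trp53+/+ replicate 1. At day 1 in E14 cells, a day on which limma called none of the 4 streak factors, 6 of the 12 were higher than at day 0 and 1 was lower, beside 1.75% higher and 1.55% lower of all tested genes. The higher ones were Otx2, Sall2, Pou3f1, Fgf5, Dnmt3b and Zic2 (limma, adjusted p from 0.00097 to 0.022), and the lower one was Nanog (-1.77, limma, adjusted p = 0.010).

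**Figure D5:**
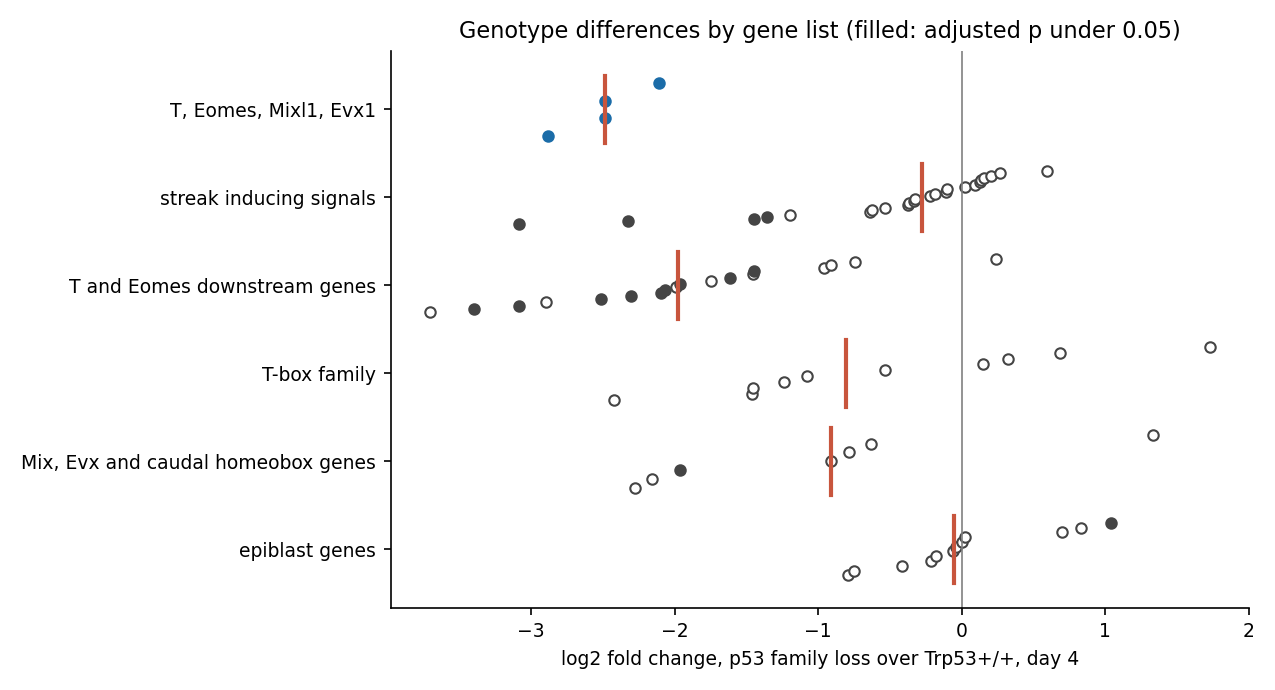
Log2 fold change of each tested gene, p53 family loss over Trp53+/+ at day 4, for the 4 streak factors and the 5 lists, with filled points for an adjusted p under 0.05 (limma) and a red line at each list's median. The 4 streak factors lie between -2.89 and -2.11, and the list medians between -1.98 for genes downstream of T and Eomes and -0.05 for epiblast genes.

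Over the 10 E14 libraries the profiles of the 4 genes on the log2 scale were alike to different degrees. Pearson's r was 0.989 for T with Mixl1, 0.938 for Eomes with Mixl1, 0.925 for T with Eomes, 0.904 for Mixl1 with Evx1, 0.884 for T with Evx1 and 0.828 for Eomes with Evx1. All points share the same 10 libraries and a common rise with time, so r is a description only. Among 10090 candidate genes, those closest to T were Cxx1c (r = 0.988), the cadherin gene Cdh11 (0.983) and Dnajb4 (0.981). Cdh11 (0.995) and Lhx1 (0.983), a homeobox factor of the streak and node, were the closest to Mixl1, before Mogs (0.981). Closest to Evx1 were Aplnr (0.982), the apelin receptor of early mesoderm, Cyp26a1 (0.981), which degrades retinoic acid, and Samd3 (0.978). Closest to Eomes were Arhgap17 (0.989), Arhgap36 (0.987) and Txnrd2 (0.983). Pearson's r takes no account of the size of a rise. From day 0 to day 4, mean CPM went from 8.57 to 504 for Eomes. It went from 43.4 to 68.1 for Arhgap17, from 0.643 to 10.9 for Arhgap36 and from 8.30 to 18.6 for Txnrd2. Mogs went from 37.7 to 96.5 and Dnajb4 from 5.15 to 17.6, while Cdh11 went from 0.404 to 119.

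These neighbours in time behaved unevenly between genotypes. Lower in p53 family loss were Cdh11 (-1.81, limma, adjusted p = 0.041), Lhx1 (-2.52, limma, adjusted p = 0.017), Aplnr (-2.42, limma, adjusted p = 0.019) and Cyp26a1 (-2.45, limma, adjusted p = 0.0027). Cyp26a1 had 613 and 587 in p53 family loss, against 3220 and 3349 in Trp53+/+. Samd3 (-1.91, limma, adjusted p = 0.088) and Cxx1c (-1.18, limma, adjusted p = 0.081) were not called, nor were Dnajb4, Mogs or the 3 genes closest to Eomes, whose changes lay between -0.92 and 0.21.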

How the data were processed

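RNA-seq tables of 14 libraries were used, and the 16 ChIP-seq and input samples were not analysed here. The build mm9 and the tools HTSeq 0.5.4, DESeq2, Bowtie2, SAMtools 0.1.19 and FastQC 0.11.3 are named, per the submitters' processing notes, with no role or order given. Per the labels' protocols, the libraries were made with TruSeq RNA v2. The deposited values are a signal: the authors divided each read count by a factor of its library. Whole reads were recovered for 100% of the values within 1e-06, and no value column was without a sample. Genes are named by symbol, without positions.

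Comparisons were tested in R 4.3.3 with limma 3.58.1, using a trend of spread with level, on log2(value + 1), a scale that understates changes of low genes, with Benjamini-Hochberg adjusted p under 0.05 over all genes that edgeR's filterByExpr kept, 15841 for the E14 days and 14840 for the genotypes. The tables were fitted separately and whole, with 5 and 2 residual degrees of freedom. Errors are SE from limma, and intervals are 95%. edgeR 4.0.16 on the recovered reads called 184 genes between genotypes and 5634 between day 4 and day 0. DESeq2 1.42.0, TMM log CPM, pseudocounts of 5 and 0.1, no filter, no trend, a replicate block, only the 2 days compared and leaving out each library were alternatives. Scripts were tested on simulated data. Promoters were searched with Python 3.11.15.

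The 4 genes, the gene lists and the tests were chosen with earlier results of these data known. The rule for named genes was the 4 members, the 3 genes of highest Pearson correlation with each (at least 10 CPM on 1 day, no Gm, LOC or Rik symbols), the 3 genes of smallest p in each list, and Wnt3, Nodal, Tdgf1, Mesp1, Trp53, Trp63 and Trp73. Wnt8a at day 1, Tbx6, Col1a2, Evx1os, Evx2, Rn45s and the epiblast genes at day 1 were named after their values were seen. PCR copies are not independent molecules, so counting intervals cover counting error only.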

Additional observations from a re-analysis of the deposited data

How the results depend on the processing

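Of the 4 genotype falls, all kept their direction with any 1 library left out. All kept their call under every alternative setting that used all libraries, except Eomes without a trend (-2.11). No paired origin is stated for replicate numbers, and deviations of same-numbered libraries correlated at -0.19 to 0.35 between E14 days and 0.57 between genotypes. With the number as a replicate block, Evx1 day 3 over day 2 missed the threshold (3.95, limma, adjusted p = 0.055), no other member's call changed, and the genotype comparison called 2973 genes instead of 184. In the genotype comparison the block called 9 lower and 1 higher of 24 inducing signals, 17 lower of 18 downstream genes, 5 lower and 1 higher of 10 T-box genes, 5 lower and 1 higher of 7 homeobox relatives, and 3 higher and 3 lower of 12 epiblast genes. Between same-numbered libraries, p53 family loss minus Trp53+/+, log2 Eomes over T differed by 0.78 and 0.78, Mixl1 over T by 0.41 and 0.39 and Evx1 over T by 0.19 and 0.61. DESeq2 added calls for Eomes day 1 over day 0 (1.42), T day 2 over day 0 (1.22), all 4 genes day 2 over day 1 (T 2.17, Eomes 1.20, Mixl1 1.46, Evx1 -1.67), Eomes day 3 over day 2 (2.13) and T day 4 over day 3 (1.51). Without a trend Evx1 day 3 over day 2 was lost (3.95). With only the 2 days compared, Mixl1 day 2 over day 0 was lost (1.62), and Eomes day 2 over day 1 (1.20), Eomes day 3 over day 2 (2.12), T day 4 over day 3 (1.54) and Eomes day 4 over day 3 (0.96) were gained. With 1 library left out, 2 uncalled day 1 changes turned sign, Mixl1 (-0.030 without day 0 replicate 1) and Evx1 (-0.028 without day 1 replicate 1). Where leaving out 1 library changed a call or a sign, the log2 changes ran as follows. Against day 0, day 1 ranged over 0.84 to 2.39 for Eomes, -1.32 to -0.50 for T, -0.030 to 0.44 for Mixl1 and -0.028 to 1.56 for Evx1, and day 2 over 0.72 to 1.66 for T and 1.39 to 1.86 for Mixl1. Day 2 over day 1 ranged over 1.63 to 2.57 for T, 1.09 to 1.31 for Eomes and 1.30 to 1.54 for Mixl1. Day 3 over day 2 ranged over 4.77 to 5.70 for T, 1.92 to 2.32 for Eomes and 3.53 to 4.37 for Evx1. Day 4 over day 3 ranged over 1.18 to 1.90 for T, 0.77 to 1.16 for Eomes, 1.70 to 2.24 for Mixl1 and 2.87 to 3.70 for Evx1.

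Totals of genes called moved more. DESeq2 called 1450 for day 1 over day 0 (523 by limma), 1290, 315 and 1026 for the later steps (94, 21 and 464) and 664 between genotypes. Without a trend the totals were 0, 7 and 112 for day 2 over day 1, day 3 over day 2 and the genotypes. Day 2 over day 1 gave 43 with a pseudocount of 0.1 and 21 with no filter. With only the 2 days compared, days 1 to 4 against day 0 gave 24, 808, 1688 and 2822 (523, 2904, 4735 and 5698) and the later steps 421, 265 and 1597. With 1 library left out the totals ran over 67 to 5176, 681 to 6282, 1481 to 7216 and 2817 to 7619 against day 0, over 0 to 1739, 1 to 217 and 43 to 1331 for the steps, and over 208 to 1613 between genotypes. The day 0 value of Mixl1 rests on 13 and 17 reads. The causes of these changes were not tested.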
